A study of Oryctolagus cuniculus with 6 samples.

Results

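Neuropeptide and granin signalling genes were examined in healing rabbit ear wounds: 3 peptide precursors (CALCA, NTS and PENK), 2 granins (SCG2 and CHGA) and 2 peptide receptors (VIPR1 and AVPR1A). They were taken by gene symbol from the authors' table of mRNAs, which holds 421 transcripts of 415 genes. Each of the 7 genes had 1 listed transcript, so 7 of 421 rows are described here. The tissue, labelled hypertrophic scar, came from full-thickness wounds, 6 on each ear, of 6 female New Zealand White rabbits at day 21. The ADSC-Exos arm (3 rabbits) was given 100 µg in 2 ml of exosomes, the small vesicles that cells secrete, here from stem cells of adipose tissue. The Control arm (3 rabbits) received saline on the same kind of wound, and both arms had antibiotics and analgesics after surgery. The design text places the applications in the first 3 days after injury, while the labels give a treatment of 21 days. The rabbits were assigned at random, and each replicate is taken here as 1 animal. The sources used here give neither the age of the animals nor how many wounds went into each library.

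Neuropeptides are made as larger precursor proteins that are cut into short peptides inside dense-core vesicles and released from nerve endings and endocrine cells. Granins are acidic proteins that help to form these vesicles and are themselves cut into active peptides. The released peptides act mostly on G protein-coupled receptors, and in skin the peptides of sensory fibres are known for dilating vessels and for neurogenic inflammation.

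The unit throughout is the authors' log2(normalized reads + 1), where normalized reads are the reads of a transcript after division by its library's size factor. A log2 difference is the mean of ADSC-Exos minus the mean of Control on that scale, which understates the change of low transcripts. The table is a selection: each listed mRNA has an absolute log2 difference over 1 and a p-value under 0.05 in the authors' own comparison of the same rabbits. A difference between the arms in the listed transcripts is therefore a description. Levels are not compared between genes, because transcript lengths were not used here. Total depth is unknown, since the rows are selected. Reads in the listed mRNAs were 86844, 223668 and 224554 in ADSC-Exos rabbits 1, 2 and 3, and 100758, 137608 and 155547 in Control rabbits 1, 2 and 3. ADSC-Exos rabbit 1 stands apart from the other treated rabbits in this sum, although its size factor of 1.01 lies beside their 0.988 and 0.981. Over the 242 listed mRNAs that were higher in ADSC-Exos, it was the lowest treated rabbit for 83.9%. Each log2 difference between the arms is therefore also given without it. In bulk tissue, fewer cells of a type and less RNA per cell cannot be told apart.

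Of the 7 transcripts PENK, SCG2, CHGA, VIPR1 and AVPR1A were higher in ADSC-Exos scars, and CALCA and NTS were lower. An FDR under 0.05 was reached by 0 of the 7 and by 11.6% of all listed mRNAs in the authors' deposited table. With limma and Benjamini-Hochberg adjustment over 17743 transcripts, 0 of the 7 passed an adjusted p of 0.05 and 0% of the listed mRNAs did. Adjusted over the listed table alone, limma passed 0 of the 7 and 0.713% of the listed mRNAs. The rows were selected at a p under 0.05 in these same rabbits. Counts adjusted over the table alone, and unadjusted limma p-values and their counts, are therefore descriptions, not valid tests. The count changed most without ADSC-Exos rabbit 1: 6 of the 7, all but CALCA, and 68.2% of the listed mRNAs then passed. With any of the other rabbits left out, 0 of the 7 passed, and among all listed mRNAs 1, 0, 18, 0 and 6 passed without ADSC-Exos rabbits 2 and 3 and Control rabbits 1, 2 and 3. At an unadjusted limma p under 0.05 there were 4 of the 7, against 45.8% of the listed mRNAs. That count was 6 without ADSC-Exos rabbit 1, against 73.9% of the listed mRNAs. It was 0 without ADSC-Exos rabbit 2, ADSC-Exos rabbit 3 or Control rabbit 2, against 24.0%, 23.0% and 22.3%. It was 1 without Control rabbit 1 or Control rabbit 3, against 33.5% and 27.8%. The arms did not overlap for 4 of the 7, namely CALCA, PENK, SCG2 and CHGA, against 53.7% of the listed mRNAs. The share was 3 of 5 among the higher transcripts, against 44.2% of those listed higher, and 1 of 2 among the lower, against 66.5% of those listed lower. Without ADSC-Exos rabbit 1 the arms of all 7 separated, as did those of 86.2% of the listed mRNAs, a count that cannot drop when an animal is removed.

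CALCA encodes the precursor of calcitonin and of CGRP, the vasodilator peptide of sensory nerve fibres. Which of these products the listed transcript encodes was not examined here. The listed transcript (ENSOCUT00000002447) had 4, 6 and 6 reads in the ADSC-Exos rabbits and 9, 20 and 17 reads in the Control rabbits. Every treated rabbit was below every Control rabbit, by 0.27 on the log2 scale at the closest point, between ADSC-Exos rabbit 3 and Control rabbit 1. Its mean was 2.66 ± 0.30 in ADSC-Exos scars and 3.94 ± 0.73 in Control scars (log2, SD, n = 3 each), a difference of -1.29 (SE 0.45). Mean normalized reads were 5.39 ± 1.22 in ADSC-Exos and 15.6 ± 6.91 in Control scars (SD, n = 3 each), a ratio of 0.346. These are few reads: the exact 95% Poisson interval was 2.20 to 13.1 for the 6 reads of ADSC-Exos rabbit 2 and 4.12 to 17.1 for the 9 reads of Control rabbit 1. Such intervals cover counting error only, and these overlap. The authors' deposited table gave CALCA an FDR of 0.52, and limma an unadjusted p of 0.079. Leaving out ADSC-Exos rabbit 1 gave -1.12, and a pseudocount of 10 normalized reads gave -0.70. CALCA shares much sequence with CALCB, and the sources used here do not say how reads common to such genes were counted.

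NTS encodes neurotensin, a peptide of gut endocrine cells and neurons. Its listed transcript (ENSOCUT00000010331) had 21, 9 and 9 reads in the ADSC-Exos rabbits and 79, 40 and 18 reads in the Control rabbits. The Control rabbits were spread widely, and ADSC-Exos rabbit 1, at a log2 value of 4.45, lay just above Control rabbit 3 at 4.41. The arms overlapped by that pair. The mean was 3.71 ± 0.64 in ADSC-Exos and 5.28 ± 0.84 in Control scars (log2, SD, n = 3 each), a difference of -1.57 (SE 0.61). As mean normalized reads this was 13.1 ± 6.77 in ADSC-Exos and 42.3 ± 23.3 in Control scars (SD, n = 3 each). An FDR of 0.28 stood in the authors' deposited table, and limma gave an unadjusted p of 0.035. Without ADSC-Exos rabbit 1 the difference was -1.94.

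PENK encodes proenkephalin, the precursor of the enkephalin opioid peptides, and was higher in treated scars. The listed transcript (ENSOCUT00000007054) had 166, 300 and 768 reads in the ADSC-Exos rabbits, against 144, 154 and 139 reads in the Control rabbits. ADSC-Exos rabbit 3 was far above the others, and ADSC-Exos rabbit 1 cleared the highest Control rabbit by 0.08 on the log2 scale. The mean was 8.41 ± 1.13 in ADSC-Exos scars and 7.17 ± 0.20 in Control scars (log2, SD, n = 3 each), a difference of 1.24 (SE 0.66). Normalized reads averaged 417 ± 324 in ADSC-Exos and 144 ± 19.3 in Control scars (SD, n = 3 each), a ratio of 2.90. Much of this rests on 1 animal, since the difference was 0.64 without ADSC-Exos rabbit 3 and 1.76 without ADSC-Exos rabbit 1. The authors' deposited FDR was 0.19, and the unadjusted limma p was 0.091.

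**Figure D1:**
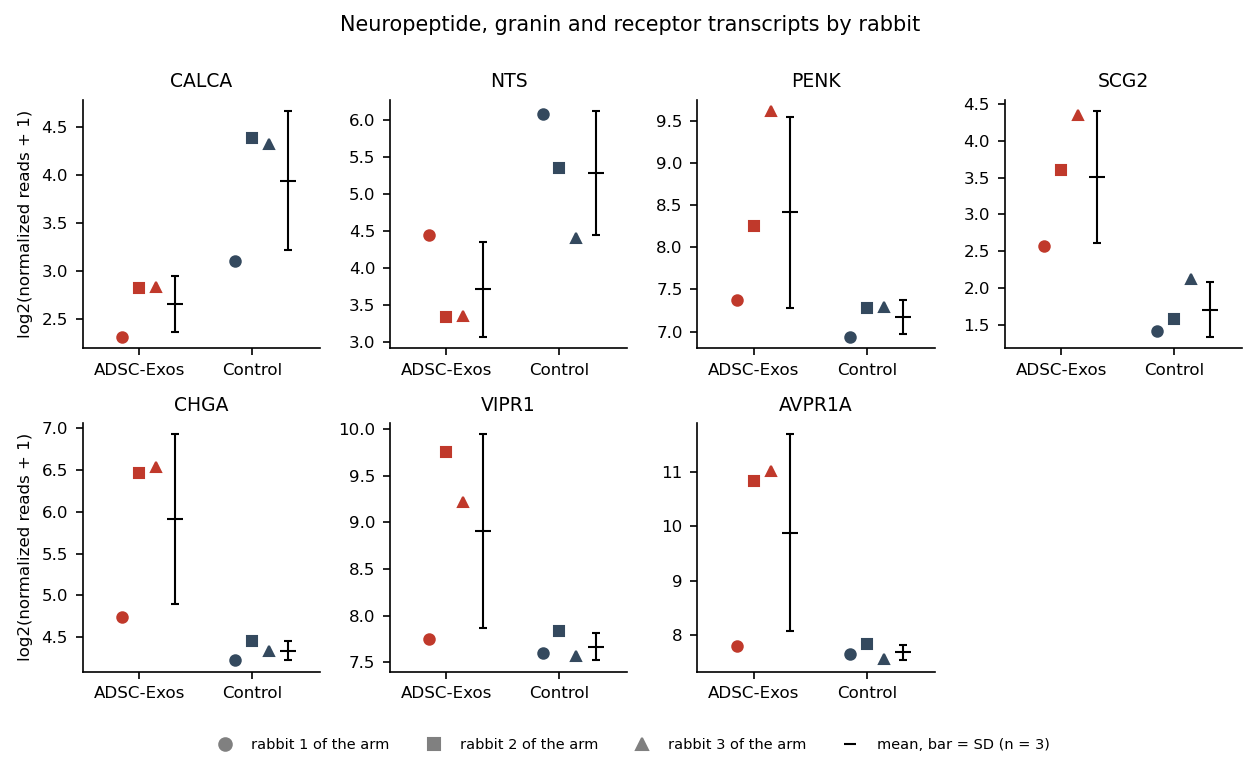
Log2(normalized reads + 1) of the listed transcript of each gene in the 3 ADSC-Exos rabbits (left) and the 3 Control rabbits (right); marker shapes stand for the rabbit number within an arm, and bars for mean ± SD. The vertical scale differs between panels. CALCA, PENK, SCG2 and CHGA have arms that do not overlap, and ADSC-Exos rabbit 1 is the lowest treated rabbit for each of the 5 transcripts that were higher.

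The 2 granins were both higher in ADSC-Exos scars. SCG2, secretogranin II, is a granin of neurons and endocrine cells and the source of the peptide secretoneurin. Its listed transcript (ENSOCUT00000012368) had 5, 11 and 19 reads in the ADSC-Exos rabbits and 2, 2 and 3 reads in the Control rabbits. Each treated rabbit was above each Control rabbit, with a gap of 0.45 on the log2 scale between ADSC-Exos rabbit 1 and Control rabbit 3. Mean normalized reads were 11.8 ± 7.23 in ADSC-Exos scars and 2.35 ± 0.90 in Control scars (SD, n = 3 each), a ratio of 5.02. On the log2 scale the mean was 3.51 ± 0.89 in ADSC-Exos and 1.71 ± 0.37 in Control scars (SD, n = 3 each), a difference of 1.80 (SE 0.56). Counting error is large here: the exact 95% Poisson interval was 1.62 to 11.7 for the 5 reads of ADSC-Exos rabbit 1 and 0.619 to 8.77 for the 3 reads of Control rabbit 3. SCG2 had an FDR of 0.34 in the authors' deposited table and an unadjusted limma p of 0.045. A pseudocount of 10 normalized reads gave a difference of 0.77, and all rabbits but ADSC-Exos rabbit 1 gave 2.26.

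CHGA encodes chromogranin A, a granin used widely as a marker of neuroendocrine cells. The listed transcript (ENSOCUT00000022548) had 26, 86 and 90 reads in the ADSC-Exos rabbits, against 21, 21 and 17 reads in the Control rabbits. ADSC-Exos rabbits 2 and 3 lay close together and high, while ADSC-Exos rabbit 1 was above the highest Control rabbit by 0.29 on the log2 scale. The mean was 5.91 ± 1.01 in ADSC-Exos and 4.34 ± 0.12 in Control scars (log2, SD, n = 3 each), a difference of 1.58 (SE 0.59). In normalized reads the means were 68.2 ± 36.8 in ADSC-Exos and 19.3 ± 1.63 in Control scars (SD, n = 3 each), a ratio of 3.54. Of the 7 transcripts it had the smallest p in the authors' deposited table, 0.0010 with an FDR of 0.093, and in limma, 0.030 unadjusted. Leaving out ADSC-Exos rabbit 1 gave a difference of 2.16.

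The 2 receptors were also higher, through ADSC-Exos rabbits 2 and 3. VIPR1 encodes a receptor for vasoactive intestinal peptide and for PACAP that couples to cyclic AMP. Its listed transcript (ENSOCUT00000013108) had 215, 850 and 582 reads in the ADSC-Exos rabbits and 228, 227 and 168 reads in the Control rabbits. At a log2 value of 7.75, ADSC-Exos rabbit 1 lay within the Control range of 7.57 to 7.83. The mean was 8.90 ± 1.04 in ADSC-Exos and 7.67 ± 0.14 in Control scars (log2, SD, n = 3 each), a difference of 1.24 (SE 0.60). That difference was 0.81 without ADSC-Exos rabbit 2 and 1.82 without ADSC-Exos rabbit 1. VIPR1 had a deposited FDR of 0.12 in the authors' table and an unadjusted limma p of 0.079.

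AVPR1A encodes the vasopressin receptor that acts through calcium and contracts vascular smooth muscle, and its difference was the largest of the 7. The listed transcript (ENSOCUT00000010161) had 224, 1812 and 2028 reads in the ADSC-Exos rabbits, against 236, 228 and 167 reads in the Control rabbits. ADSC-Exos rabbit 1, at 7.80 on the log2 scale, was inside the Control range of 7.56 to 7.84, so the arms overlapped. ADSC-Exos rabbits 2 and 3 had 8.95 and 10.1 times the mean normalized reads of the Control rabbits, and ADSC-Exos rabbit 1 had 1.09 times. The mean was 9.89 ± 1.81 in ADSC-Exos and 7.68 ± 0.14 in Control scars (log2, SD, n = 3 each), a difference of 2.21 (SE 1.05). Normalized reads averaged 1375 ± 1005 in ADSC-Exos and 205 ± 20.7 in Control scars (SD, n = 3 each). For AVPR1A the authors' deposited table had an FDR of 0.094, and limma an unadjusted p of 0.033. Without ADSC-Exos rabbit 1 the difference was 3.25, with a limma adjusted p of 0.19 over 17743 transcripts; that adjusted p ran from 0.19 to 1 over the alternatives.

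**Figure D2:**
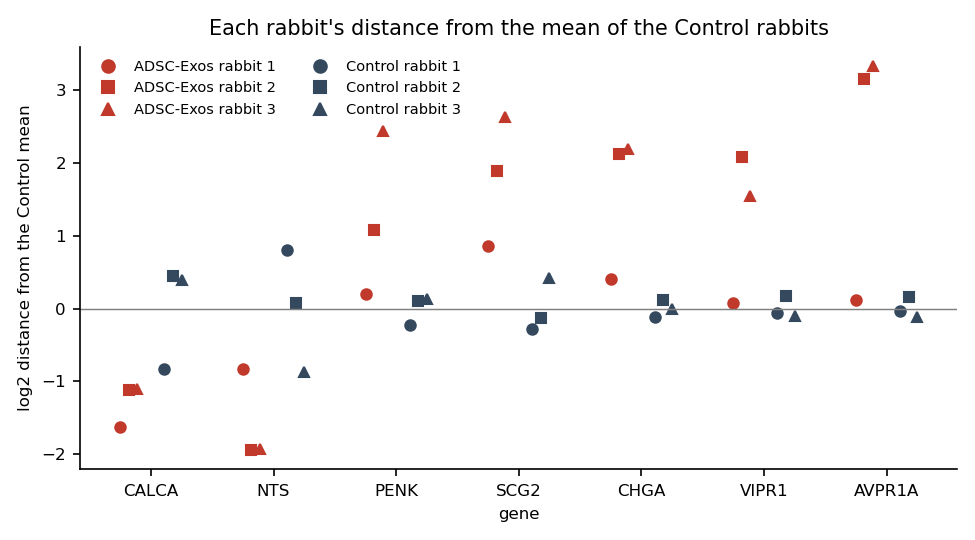
Distance of each rabbit from the mean of the Control rabbits on the log2 scale, by gene, with ADSC-Exos rabbits left of Control rabbits and marker shapes for the rabbit number within an arm. For VIPR1 and AVPR1A ADSC-Exos rabbit 1 lies at 0.08 and 0.12, among the Control rabbits, while ADSC-Exos rabbits 2 and 3 lie at 1.55 or more.

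The 5 higher transcripts shared their lowest treated rabbit. ADSC-Exos rabbit 1 had the smallest treated value for 5 of 5, a pattern that held for 83.9% of the mRNAs listed higher. Its distance from the Control mean ran from 0.08 (VIPR1) to 0.86 (SCG2) on the log2 scale. In ADSC-Exos rabbit 2 that distance ran from 1.08 (PENK) to 3.16 (AVPR1A), and in ADSC-Exos rabbit 3 from 1.55 (VIPR1) to 3.33 (AVPR1A). ADSC-Exos rabbit 3 was above ADSC-Exos rabbit 2 for PENK, SCG2, CHGA and AVPR1A, and below it for VIPR1. For the 2 lower transcripts the order was not shared: ADSC-Exos rabbit 1 was the farthest from the Control mean for CALCA (-1.63) and the nearest for NTS (-0.83). ADSC-Exos rabbits 2 and 3 had nearly the same log2 value in each of these lower transcripts, 2.82 and 2.83 for CALCA and 3.34 and 3.35 for NTS.

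Spread followed direction. The SD on the log2 scale was larger in ADSC-Exos than in Control for 5 of the 5 higher transcripts, and for 0 of the 2 lower. Among all listed mRNAs this was so for 80.2% of those higher and 43.0% of those lower. The median SD of the 5 higher transcripts was 1.04 in ADSC-Exos and 0.14 in Control scars, beside 1.07 in ADSC-Exos and 0.45 in Control scars over all mRNAs listed higher. In size the 7 transcripts were ordinary for this table, with a median absolute log2 difference of 1.57 against 1.65 over all listed mRNAs.

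With 3 rabbits against 3, an exact two-sided permutation test cannot give a p under 0.1. It gave 0.1 for CALCA, PENK, SCG2 and CHGA and 0.2 for NTS, VIPR1 and AVPR1A, so the design does not allow a single transcript to pass 0.05 by this test.

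**Figure D3:**
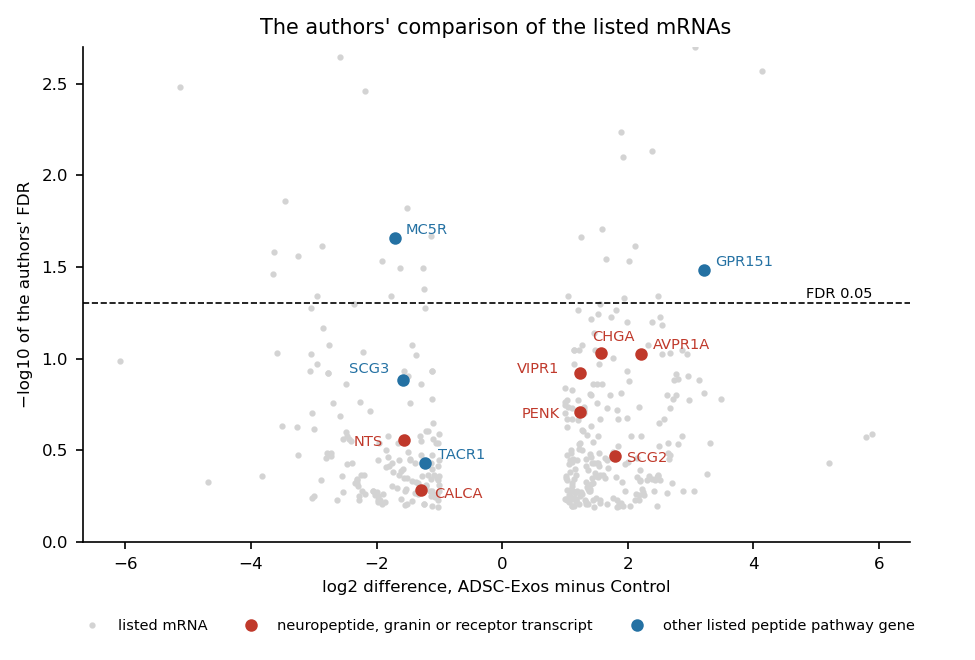
Log2 difference, ADSC-Exos minus Control, against −log10 of the FDR in the authors' deposited table, for the listed mRNAs; the dashed line marks an FDR of 0.05, and 17 listed mRNAs above 2.7 are off the axis. The 7 neuropeptide, granin and receptor transcripts (red) lie below the line, and MC5R and GPR151 (blue) above it.

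Among the higher transcripts CHGA and VIPR1 were most alike, with a root mean square distance of 0.25 between their log2 values, each centred on its own mean over the 6 rabbits. SCG2 and CHGA followed at 0.33, and PENK and SCG2 at 0.37. CALCA and NTS, both lower, were 1.02 apart. Over all listed mRNAs with a symbol, the closest to CHGA were KLHL35 (0.14), the bile acid receptor gene GPBAR1 (0.14) and MCMDC2 (0.19). GPBAR1 was also the closest to VIPR1 (0.17), followed by the secreted factor gene ISM1 (0.20) and the galectin gene LGALS4 (0.20). Closest to AVPR1A were ERMN (0.21), the potassium channel gene KCNJ1 (0.23) and the chemokine gene CCL1 (0.23). ERMN and KCNJ1 had 0 reads in ADSC-Exos rabbit 1 and in each Control rabbit, so their distance is set in part by the pseudocount. MCMDC2 was the closest to SCG2 (0.25), before the opsin gene OPN1SW (0.27) and the claudin gene CLDN2 (0.31). For PENK the nearest were CCDC24 (0.24), the phosphatidylcholine transfer protein gene PCTP (0.28) and LRRC10 (0.31). Nearest to CALCA were the glycolytic regulator PFKFB1 (0.14), TMEM233 (0.25) and the betaine transporter gene SLC6A12 (0.28), and nearest to NTS were GLOD5 (0.27), XKR4 (0.31) and the anoctamin gene ANO3 (0.35). The rows had been selected for a difference between the arms, so close profiles are common in this table.

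The wider peptide pathway was covered by lists of 124 further genes: 49 peptide precursors, 8 granins or vesicle cargo genes, 16 processing enzymes and 51 receptors. Of these, 4 were among the listed mRNAs, 1 higher and 3 lower: SCG3 from the granin list, and TACR1, MC5R and GPR151 from the receptor list. The precursor and enzyme lists had 0 listed genes. All lists were matched by symbol, and 100 of the 421 rows had no symbol, so a gene in those rows would be missed. Genes without a row under their symbol, such as the VIP and vasopressin precursors, were not analysed here. MC5R and GPR151, 2 of these 4, had an FDR under 0.05 in the authors' deposited table, against 11.6% of all listed mRNAs.

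SCG3, secretogranin III, helps to sort chromogranin A into vesicles, and unlike SCG2 and CHGA it was lower in treated scars. It had 25, 9 and 14 reads in the ADSC-Exos rabbits, against 53, 64 and 31 reads in the Control rabbits. The arms did not overlap, and the log2 difference was -1.58 (SE 0.46) with an FDR of 0.13 in the authors' deposited table. Without ADSC-Exos rabbit 1 the log2 difference of SCG3 was -1.93. The 3 listed granins therefore had no common direction. An FDR under 0.05 in the authors' deposited table was reached by 0 of 3, against 11.6% of all listed mRNAs.

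TACR1, the receptor of the sensory peptide substance P, had 51, 67 and 23 reads in the ADSC-Exos rabbits and 90, 96 and 131 in the Control rabbits. Its arms did not overlap, with a log2 difference of -1.22 (SE 0.52) and an authors' deposited FDR of 0.37. MC5R, a melanocortin receptor of sebaceous glands, fell in the authors' deposited table, with a log2 difference of -1.70 and an FDR of 0.022. It had 50, 106 and 143 reads in treated rabbits, against 260, 361 and 309 in the Control rabbits, so every treated rabbit was lower. The orphan receptor gene GPR151 rose in the authors' deposited table, with a log2 difference of 3.22 and an FDR of 0.033. It had 7, 29 and 34 reads in the ADSC-Exos rabbits and 3, 2 and 0 in the Control rabbits, again with the smallest treated value in ADSC-Exos rabbit 1. Without ADSC-Exos rabbit 1 the log2 difference was -1.33 for TACR1, -1.26 for MC5R and 3.90 for GPR151. By limma 0 of these 4 genes passed when adjusted over 17743 transcripts, and the unadjusted p was 0.020 for SCG3, 0.062 for TACR1, 0.018 for MC5R and 0.0069 for GPR151.

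**Figure D4:**
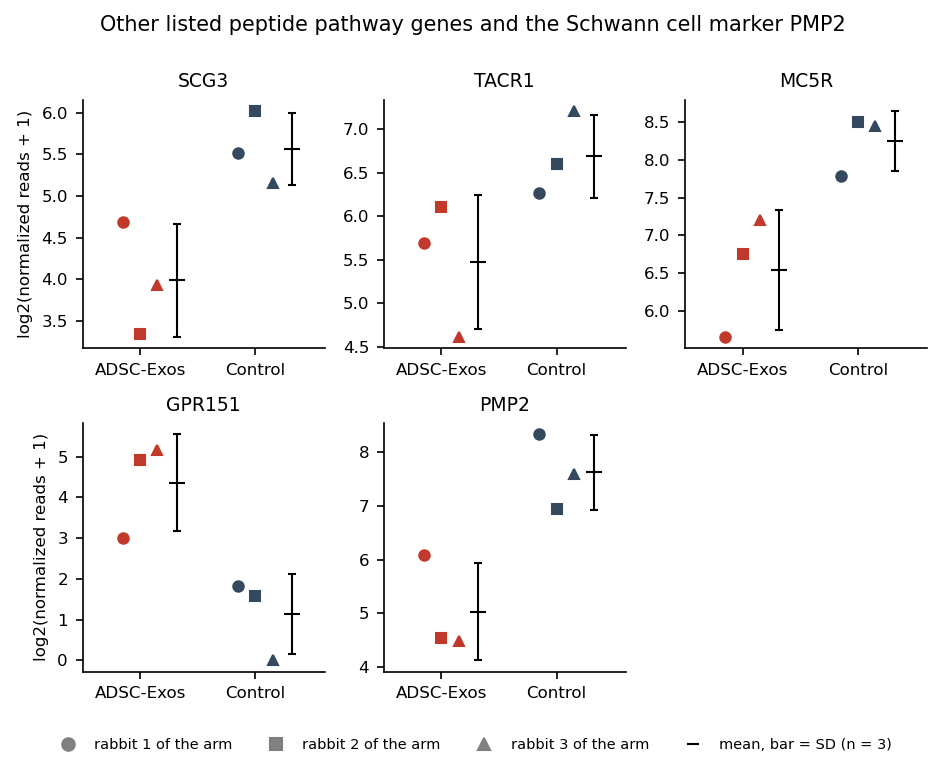
Log2(normalized reads + 1) of SCG3, TACR1, MC5R and GPR151, and of the Schwann cell marker PMP2, in the ADSC-Exos rabbits (left) and the Control rabbits (right), with mean ± SD; the vertical scale differs between panels. Of these 5 genes GPR151 was higher in ADSC-Exos scars, and the arms of each do not overlap.

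VIPR1 and AVPR1A are 2 of 9 listed mRNAs that the authors annotate to the KEGG pathway of neuroactive ligand-receptor interaction, a group picked from the annotation after the values were known. Of the 9, 6 were higher and 3 lower in ADSC-Exos scars, while of all 421 listed mRNAs 242 were higher and 179 lower. An FDR under 0.05 in the authors' deposited table was reached by 1 of the 9, MC5R, against 11.6% of all listed mRNAs. RXFP4, a receptor of an insulin-like peptide, had 7, 40 and 61 reads in the ADSC-Exos rabbits, against 7, 10 and 3 in the Control rabbits, and its arms overlapped. P2RX3, an ATP-gated channel of sensory neurons, had 53, 81 and 84 reads in the ADSC-Exos rabbits and 9, 34 and 44 in the Control rabbits, with arms that did not overlap. APLNR, the receptor of the vascular peptide apelin, had 201, 43 and 126 reads in the ADSC-Exos rabbits and 321, 262 and 188 in the Control rabbits. Its arms did not overlap after size factors. The ion channel genes GABRA5 and CHRNA2 were higher on few reads: GABRA5 had 7, 13 and 3 reads in the ADSC-Exos rabbits and none in the Control rabbits, where a count of 0 allows up to 3 reads per library. Its mean was at least 2.60-fold higher in ADSC-Exos than that limit. CHRNA2 had 4, 30 and 27 reads in the ADSC-Exos rabbits against 8, 0 and 0 in the Control rabbits.

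Markers of the cell types that could carry these transcripts were mostly not among the selected rows. Of 15 markers of peptidergic sensory neurons only CALCA was listed, of 8 markers of sympathetic neurons and chromaffin cells only CHGA, and of 11 markers of Merkel and neuroendocrine cells only SCG2 and CHGA. The lists for mast cells, T cells, fibroblasts, smooth muscle, endothelium and keratinocytes had 0 listed genes, so the labelled tissue could not be checked against its defining markers. Markers were matched by symbol too, so rows without a symbol were not covered. Of 9 Schwann cell markers examined, PMP2, a protein of peripheral myelin, was listed. PMP2 fell in the authors' deposited table (log2 difference -2.59, FDR 0.0023), with 67, 22 and 21 reads in the ADSC-Exos rabbits against 379, 122 and 171 in the Control rabbits. Its arms did not overlap, and without ADSC-Exos rabbit 1 the log2 difference of PMP2 was -3.11. Whether nerve content had a part in the values of CALCA, NTS or the granins was not tested.

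**Figure D5:**
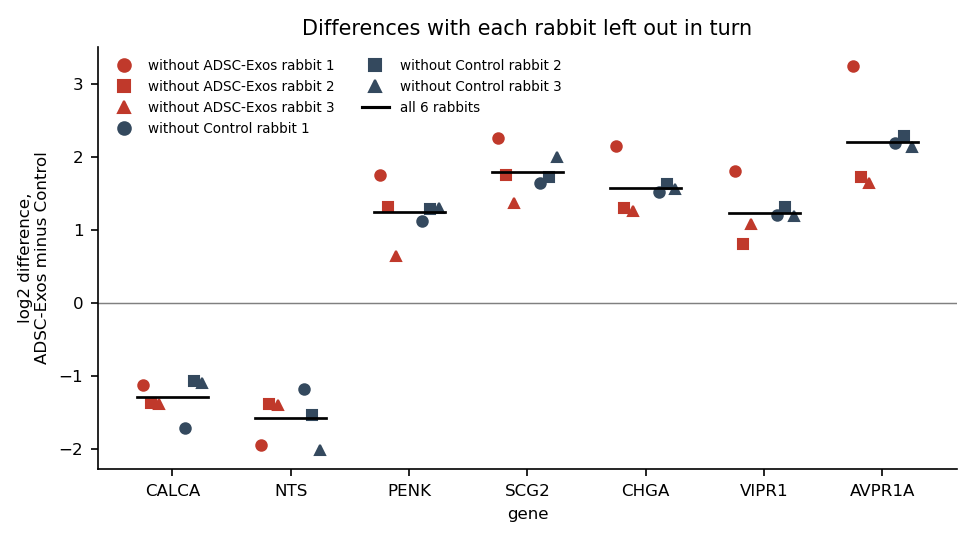
Log2 difference, ADSC-Exos minus Control, of each transcript with all 6 rabbits (black line) and with each rabbit left out in turn, ADSC-Exos rabbits left of Control rabbits. All differences keep their sign, the 5 higher transcripts reach their largest value without ADSC-Exos rabbit 1, and the smallest are 0.64 for PENK without ADSC-Exos rabbit 3 and 0.81 for VIPR1 without ADSC-Exos rabbit 2.

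By the authors' annotation, 4 of the 7 genes (CALCA, NTS, PENK and SCG2) carry an extracellular region or space term, against 15.7% of all listed mRNAs. VIPR1 and AVPR1A carry plasma membrane. The genes were chosen as peptide precursors, granins and peptide receptors, so these terms follow from the choice and are not a result. The authors' tables list 0 of 1694 circular RNAs under the symbols of these 7 genes and 0 of 133 long noncoding RNAs within 3 kb of the 7 transcripts. For 6 of the 7, all but CALCA, the RefSeq gene table (assembly mOryCun1.1) holds the symbol. By symbol, none of their 10 neighbouring protein-coding genes, taken equally from both sides, is a listed mRNA. Listed rows without a symbol could not be matched. Sequences of these genes were not used here.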

How the data were processed

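RNA of scar tissue from 6 rabbits was sequenced. The submitters' processing notes name DESeq2 1.30.1, HTSeq 2.0.3, STAR 2.7.6a, FastQC 1.0.0 and Trimmomatic 0.40, with no roles. The genome build and strand setting are not given in the sources used here. The labels' protocols describe small RNA adaptors, while the tables used hold mRNAs.

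The authors deposited log2 values. Taken off the log scale, less 1, every value of a library was a whole multiple of a common step (100% within 0.01), so reads and size factors were recovered. The authors deposited p-values and FDR whose test is not named, and 17743 tested transcripts fit best to their ratios (53.4% at a whole rank).

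The mRNA table was fitted in R 4.3.3 by limma 3.58.1, using its trend and robust options. Its p-values were adjusted over 17743 transcripts, the unlisted ones taken as unchanged. The fit was tested on simulated data. SEs come from the pooled spread of both arms. No count test was run on the recovered reads. Values were tabulated with Python 3.11.15. The genes and lists were chosen with earlier results of these data known. Named genes are the members, listed genes of the pathway and marker lists, the 3 closest profiles for each member, and genes of 1 KEGG annotation group added later. One marker gene is not reported here.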

Additional observations from a re-analysis of the deposited data

How the results depend on the processing

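The table holds selected rows and library depth is unknown, so these settings test only the selection. For the 7 transcripts, the log2 difference kept its sign and stayed on its side of the threshold adjusted over 17743 transcripts in 91 of 91 comparisons over 13 alternatives. This does not measure robustness. The rows were selected for an absolute log2 difference over 1 in these same rabbits. With the unlisted transcripts taken as unchanged, at most 2 of all listed mRNAs passed under any of the 13. Adjusted over the table alone, the 0 of the 7 were 0 to 6 with 1 rabbit left out, the 6 without ADSC-Exos rabbit 1. The 3 of all listed mRNAs were then 0 to 287, the 287 also without ADSC-Exos rabbit 1. They were 22 without the trend and robust options, 33 after quantile normalization, and 0 at a pseudocount of 0.1, at one of 10 and with the replicate block. The limma count of calls adjusted over 17743 transcripts, 0 for the 7 transcripts and 0 for all listed mRNAs, was 0 and 3 when adjusted over the table alone, 4 and 193 at an unadjusted p under 0.05, and 0 to 0 and 0 to 2 with 1 rabbit left out, the 2 without ADSC-Exos rabbit 1. The other settings of the counts adjusted over 17743 transcripts gave 0. At an unadjusted p under 0.05, the 4 were 0 to 6 with 1 rabbit left out. With all 6 rabbits they were 6 after quantile normalization, beside 205 of all listed mRNAs, and 3 with a filter at a mean of 10 normalized reads. The 193 were 127 with a filter at a mean of 10 normalized reads, which tests fewer transcripts, and 94 to 311 with 1 rabbit left out: 311, 101 and 97 without ADSC-Exos rabbits 1, 2 and 3, and 94 and 117 without Control rabbits 2 and 3. The 4 transcripts whose arms do not overlap were 4 to 7 with 1 rabbit left out, against 55.8% to 86.2% of the listed mRNAs. The unadjusted, overlap and table-alone counts across settings were added after seeing the data. Quantile normalization shifted the median difference of all listed mRNAs by -0.23 on the log2 scale and reversed none of the 7. With the replicate number as a block (replicate block) there were 0 adjusted calls, 3 of the 7 and 169 listed mRNAs at an unadjusted p under 0.05. Deviations from the arm means correlated at -0.02, -0.01 and 0.01 between rabbits of the same number. These rows were selected for a difference between the arms, so the correlations cannot decide whether the numbers pair the samples. The other causes were not tested.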
